A study of Mus musculus with 3 samples.

Results

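The 10 genes described here mark T cells and natural killer (NK) cells. They were taken by symbol from a table of 28074 gene symbols, and each stood on 1 row. Cd3d, Cd3e and Cd3g encode chains of the CD3 complex, Cd4 and Cd8a encode co-receptors, Lck encodes a kinase, and Gzmb, Prf1, Nkg7 and Klrb1c are genes of cytotoxic granules and of an NK cell receptor. The values come from RNA of 3 acute myeloid leukemias, each from a different moribund mouse, that make up 1 group and are called mice 1, 2 and 3 in the order of their records. The labels give the genotype as miR196b-/-, Dnmt3afl/fl, Flt3ITD/ITD, Mx1Cre, although the sample titles write Dnmt3a+/-. By these labels all 3 leukemias lacked the microRNA miR-196b, which was not checked here, carried Dnmt3a lesions and an internal tandem duplication of the receptor Flt3, and held Mx1-Cre, an interferon-inducible recombinase that is not restricted to 1 blood lineage. Spleen cells were freed of red cells and enriched with magnetic beads for c-Kit, a receptor of immature blood cells, and lysed. The comparison planned by the study was with miR-196b-intact leukemias of a different series, not analysed here, so no genotype comparison is made.

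In T cells, the T cell receptor recognises antigen but signals through the CD3 chains and the zeta chain Cd247. Lck, which CD4 and CD8 bind, phosphorylates these chains, and the kinase Zap70 then docks on them and passes the signal to the adaptors Lat and Lcp2. Cytotoxic T cells and NK cells kill with perforin, which opens the target membrane, and with granzymes, proteases that enter through it. Several of these genes are also known from other blood cells: in mice, Cd4 and Cd8a are found on subsets of dendritic cells, and Gzmb in mast cells.

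The CD3 genes lie side by side on chromosome 9. In GENCODE M21 (GRCm38, the assembly that mm10 denotes), Cd3g occupies 44969572 to 44980431 on the minus strand, Cd3d 44981786 to 44987339 on the plus strand, and Cd3e 44998740 to 45009627 on the minus strand. The annotated starts of Cd3d and Cd3g are 1355 bases apart and point away from each other. The promoters of these neighbours are shown because their levels differed, and that of Nkg7 because it was the most abundant of the 10 genes. The Gzmb promoter is shown because, among the 7 genes averaging 1 TPM or more (defined below), Gzmb differed most between mice. Each runs 5′ to 3′ on the gene's strand, from 250 bases before to 50 bases after the start in RefSeq (GRCm38.p6). Capitals mark AGGAAG, a form of the ETS factor core, and TGTGGT, a form of the RUNX factor core, on either strand; the motifs did not overlap each other.
Cd3g promoter, chr9:44980382-44980681, minus strand: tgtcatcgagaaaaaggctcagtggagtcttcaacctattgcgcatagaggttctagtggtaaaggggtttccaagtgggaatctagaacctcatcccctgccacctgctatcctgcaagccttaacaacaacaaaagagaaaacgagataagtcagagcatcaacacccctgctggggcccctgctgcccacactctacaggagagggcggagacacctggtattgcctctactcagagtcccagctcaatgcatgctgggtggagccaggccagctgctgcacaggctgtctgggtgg
Cd3d promoter, chr9:44981536-44981835, plus strand: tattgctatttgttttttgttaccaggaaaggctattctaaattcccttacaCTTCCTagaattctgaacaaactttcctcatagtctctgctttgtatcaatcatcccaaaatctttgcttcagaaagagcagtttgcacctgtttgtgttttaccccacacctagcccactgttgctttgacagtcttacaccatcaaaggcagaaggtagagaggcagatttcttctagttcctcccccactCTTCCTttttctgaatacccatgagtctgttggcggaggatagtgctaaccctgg
Cd3e promoter, chr9:45009562-45009861, minus strand: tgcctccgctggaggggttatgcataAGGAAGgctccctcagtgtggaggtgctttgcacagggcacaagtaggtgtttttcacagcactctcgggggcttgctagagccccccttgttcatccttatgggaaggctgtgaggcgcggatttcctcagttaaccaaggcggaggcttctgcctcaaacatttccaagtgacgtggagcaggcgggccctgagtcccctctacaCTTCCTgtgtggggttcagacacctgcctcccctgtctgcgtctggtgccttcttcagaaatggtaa
Nkg7 promoter, chr7:43436888-43437187, plus strand: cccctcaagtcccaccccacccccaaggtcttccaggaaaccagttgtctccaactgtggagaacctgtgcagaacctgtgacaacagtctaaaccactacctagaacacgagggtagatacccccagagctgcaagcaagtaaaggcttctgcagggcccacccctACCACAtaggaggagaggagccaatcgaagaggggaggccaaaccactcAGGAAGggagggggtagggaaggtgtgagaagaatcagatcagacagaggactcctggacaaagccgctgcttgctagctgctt
Gzmb promoter, chr14:56262285-56262584, minus strand: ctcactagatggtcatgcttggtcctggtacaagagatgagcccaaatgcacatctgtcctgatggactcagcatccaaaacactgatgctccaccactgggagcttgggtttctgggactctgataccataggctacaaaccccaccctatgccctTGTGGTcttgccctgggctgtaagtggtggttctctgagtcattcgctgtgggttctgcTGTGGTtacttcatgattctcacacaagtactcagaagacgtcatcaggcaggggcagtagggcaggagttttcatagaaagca

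AGGAAG was matched at 2 places in the Cd3d window, at 2 in the Cd3e window, at 1 in the Nkg7 window and at 0 in the Cd3g and Gzmb windows. TGTGGT was matched at 2 places in the Gzmb window, at 1 in the Nkg7 window and at 0 in the 3 CD3 windows. Of 32851 promoter windows of this length, 35.4% held AGGAAG and 16.8% held TGTGGT, so single matches are common. The TATA motif TATAAA was matched in none of the windows of the 9 members matched (all but Cd4), against 13.6% of all windows.

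Levels are given as TPM, a transcript abundance corrected for length and library total that lets genes be compared within a library. Detection was set at 1 TPM or more. The labels state 30000000 planned reads per library. TPM does not record how many were obtained, so errors are the spread between the 3 mice. Between 14976 and 15108 symbols per mouse were detected. For the labelled cell type, 10 myeloid genes were fixed and 9 were analysed here. All 9 were detected in every mouse, where 50.7% of all symbols were. They were led by Mpo (1192 TPM, mean), Lyz2 (618 TPM) and Ctsg (516 TPM). All 12 genes of a dendritic cell list were detected too, so detection alone does not single out 1 cell type. Kit, the enrichment marker, had 139, 149 and 133 TPM in mice 1, 2 and 3.

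Together the 10 genes summed to 194, 137 and 182 TPM in mice 1, 2 and 3, a mean of 171 ± 30.1 TPM (SD, n = 3). Nkg7 made up most of this sum: without it the other 9 genes came to 40.8, 35.7 and 39.6 TPM. In all 3 mice 7 of the 10 genes were detected, where 50.7% of all symbols were. The exceptions were Cd3e, Cd3g and Prf1, whose mean TPM was below 1. In log2(TPM + 1), the median over the 10 genes was 2.18 ± 0.12 (SD, n = 3), against 1.39 over all symbols and 4.19 over the 15181 symbols averaging 1 TPM or more. In bulk RNA, a few cells that express a gene strongly and many that express it weakly cannot be told apart, and neither can fewer cells of a type and less RNA per cell.

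**Figure D1:**
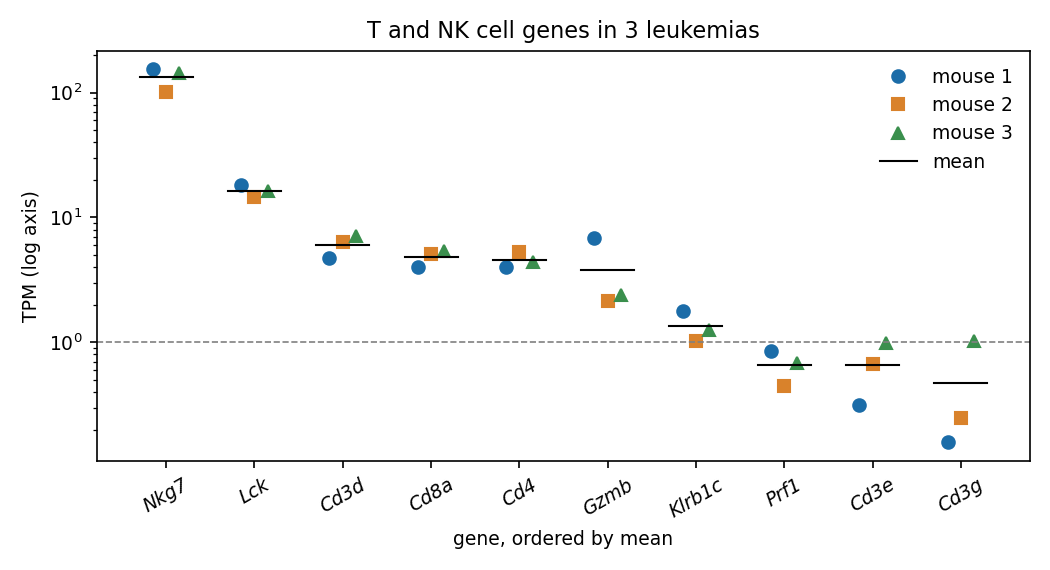
TPM (log axis) of the 10 genes in mouse 1 (circle), mouse 2 (square) and mouse 3 (triangle), with the mean as a line and 1 TPM as a dashed line. Nkg7 lies above 100 TPM in each mouse, Lck between 14.5 and 18.2 TPM, and Cd3e, Cd3g and Prf1 at about 1 TPM or below.

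By mean TPM the order was Nkg7, Lck, Cd3d, Cd8a, Cd4, Gzmb, Klrb1c, Prf1, Cd3e and Cd3g. Nkg7 and Lck were each separated from every gene below them, with no overlap between their ranges over the mice. From Cd3d through Cd8a and Cd4 to Gzmb, the ranges of neighbouring genes overlapped, although Cd3d was above Cd8a within each of the 3 mice. Klrb1c lay below the range of Gzmb and above that of Prf1, while Prf1, Cd3e and Cd3g overlapped.

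**Figure D2:**
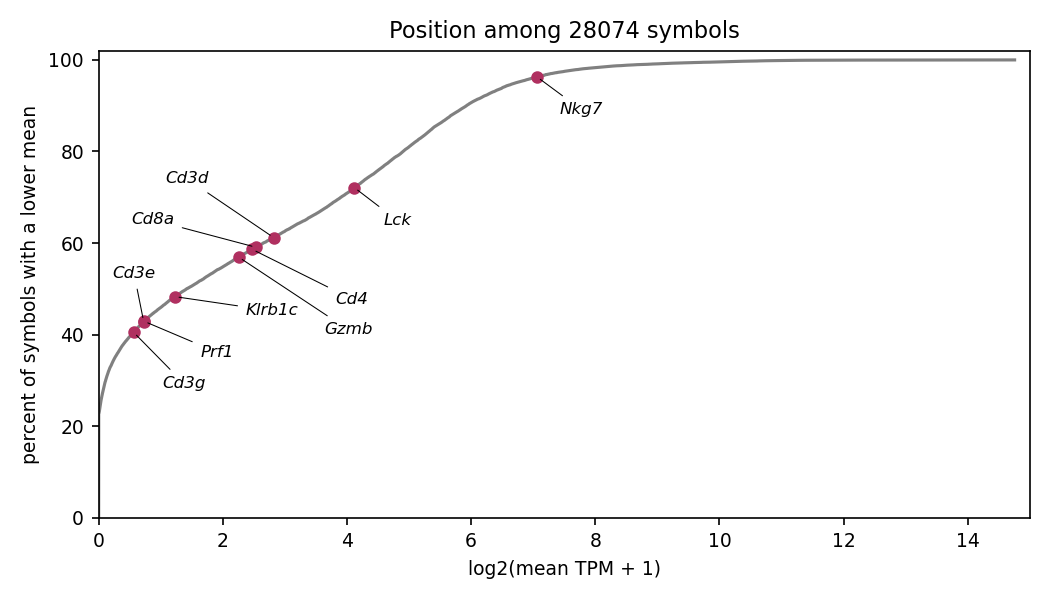
Mean level of each symbol, as log2(mean TPM + 1), against the percent of the 28074 symbols with a lower mean (grey line), with the 10 genes as points. Nkg7 stands above 96.3% of symbols and Lck above 72.1%, while Cd3g, the lowest, stands above 40.5%.

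The CD3 chains were unequal in level. Cd3d, the delta chain, had 4.69, 6.35 and 7.13 TPM in mice 1, 2 and 3 (6.06 ± 1.24 TPM, SD, n = 3). Cd3e, the epsilon chain, had 0.317, 0.665 and 0.978 TPM (0.653 ± 0.330 TPM). Cd3g, the gamma chain, had 0.159, 0.250 and 1.02 TPM (0.476 ± 0.473 TPM). The ranges of Cd3d and of the other 2 chains did not overlap, and all 3 genes were lowest in mouse 1 and highest in mouse 3.

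Within each mouse Cd3d exceeded Cd3e by 14.8, 9.55 and 7.29 times, and Cd3g by 29.6, 25.4 and 6.99 times. In a T cell the receptor complex holds delta, gamma and epsilon chains together, so their genes are usually all expressed. The zeta chain gene Cd247 had 1.93, 2.92 and 2.52 TPM, between Cd3d and Cd3e in every mouse. The constant segments of the receptor were near this level: Trac, of the alpha chain, had 0.889, 1.87 and 2.47 TPM, and Trbc2, of the beta chain, had 1.30, 2.83 and 3.59 TPM. Both were lowest in mouse 1 and highest in mouse 3, like the CD3 genes. Trbc1, the other beta constant segment, had 3.22, 0.799 and 3.23 TPM and was low in mouse 2. Trbc1 and Trbc2 are near-identical copies, so the division of reads between them is uncertain.

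Words of 31 bases, a length that kallisto commonly uses to assign reads, were compared between the members and all other genes of GENCODE M21. Of the words in Cd3d transcripts 3.10% were shared with another gene, in Cd3e 2.72% and in Cd3g 0.243%. Exons of Cd3e overlap the gene Gm48719 on the opposite strand over 135 bases (3.31% of the exon bases of Cd3e), and whether the counting used strand is not given in the sources used here.

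The co-receptors were at similar levels. Cd4 lies at 124864692 to 124888221 on the minus strand and Cd8a at 71373427 to 71379173 on the plus strand of chromosome 6. Cd4 had 3.99, 5.27 and 4.40 TPM in mice 1, 2 and 3 (4.55 ± 0.650 TPM), and Cd8a had 3.98, 5.05 and 5.34 TPM (4.79 ± 0.716 TPM). Their ranges overlapped, and both genes were lowest in mouse 1. Cd8b1, which encodes the beta chain that pairs with Cd8a in most cytotoxic T cells, was far lower, at 0.299, 0.811 and 0.875 TPM. Cd8a exceeded it by 13.3, 6.22 and 6.10 times in the 3 mice.

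Dendritic cell genes were present beside the co-receptors. All 12 genes of a dendritic cell list were detected in each mouse, where 50.7% of all symbols were. They were led by Irf8, a transcription factor of several myeloid lineages (716, 1256 and 775 TPM), and Clec9a, a receptor of cross-presenting dendritic cells (184, 415 and 273 TPM). The third most abundant, Flt3, is also the engineered receptor gene of these leukemias. The summed level of the list ranged from 1365 to 2398 TPM, and none of its genes was at 0. Of the 12 genes 11 were lowest in mouse 1, as Cd4 and Cd8a were, where 24.4% of all symbols averaging 1 TPM or more were. After scaling to a common upper quartile it was again 11, against 36.0%. Under both scalings 8 of the 12 were highest in mouse 2, as Cd4 was, whereas Cd8a was highest in mouse 3. Of all symbols averaging 1 TPM or more, 31.1% were highest in mouse 2 as deposited and 33.9% after the scaling. The part of dendritic cell RNA in the values of Cd4 and Cd8a was not tested.

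Lck was the second most abundant of the 10 genes, at 18.2, 14.5 and 16.4 TPM in mice 1, 2 and 3 (16.4 ± 1.83 TPM). Its spread was the smallest of the 10 on the log2(TPM + 1) scale, with an SD of 0.15. The gene lies at 129548344 to 129573641 on the minus strand of chromosome 4. No word of 31 bases in Lck transcripts was shared with another gene. Zap70, the kinase that acts next after Lck in T cells, had 0.462, 0.242 and 0.427 TPM, so that Lck exceeded it by 39.3, 60.0 and 38.4 times.

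Other genes of T cell receptor signalling covered a wide range of levels. Of 30 genes fixed for the receptor complex and its signalling, 27 were analysed here, and 6 had a mean of at least 10 TPM. In all 3 mice 13 of the 27 (48.1%) were detected, where 50.7% of all symbols were. The most abundant were Fyn, a kinase related to Lck (81.6 ± 13.0 TPM), Lcp2, an adaptor also used by myeloid receptors (60.4 ± 7.49 TPM), and Thy1, a surface protein of mouse T cells and some progenitors (45.8 ± 31.7 TPM). The median of the list was 1.40 ± 0.36 on the log2(TPM + 1) scale, next to the 1.39 of all symbols. Thy1 had 82.0, 32.0 and 23.3 TPM in mice 1, 2 and 3, and Lat had 22.8, 10.9 and 10.6 TPM, so both were highest in mouse 1, unlike the CD3 chains. Cd2, an adhesion molecule of T and NK cells, had 0.274, 1.18 and 2.35 TPM and followed the CD3 chains.

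**Figure D3:**
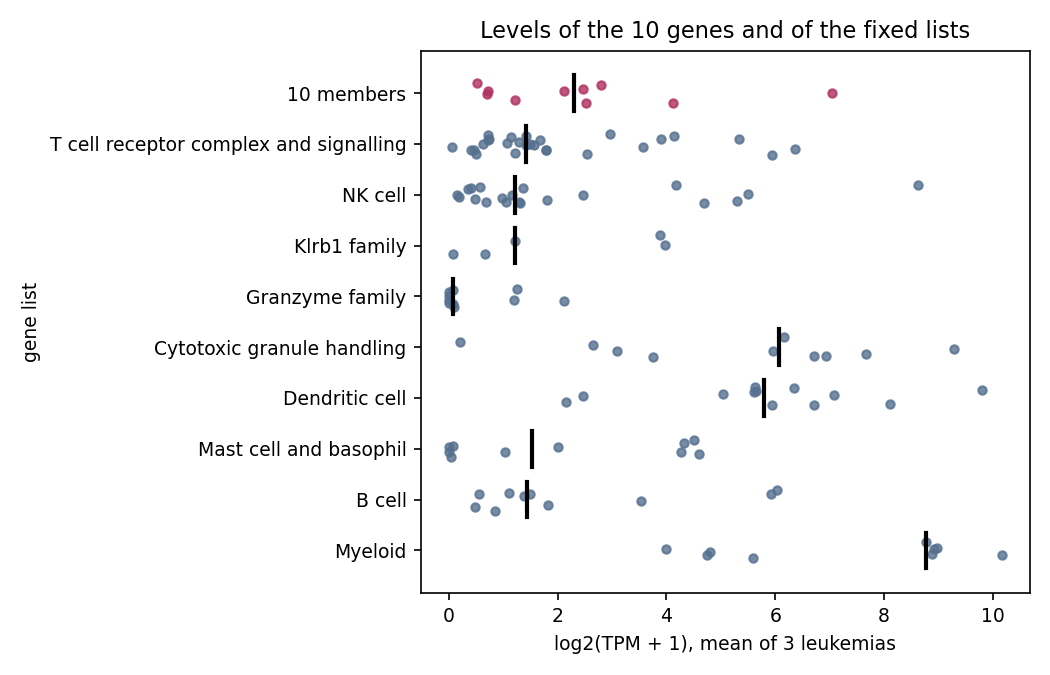
Mean log2(TPM + 1) over the 3 mice for each of the 10 genes (top row, red) and each gene of the fixed lists (blue), 1 point per gene, with the median of the points as a black bar. Most T cell receptor and NK cell genes lie below 2, while dendritic cell, granule handling and myeloid genes lie mostly above 4.

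Nkg7 encodes a membrane protein of cytotoxic granules. It had 153, 101 and 143 TPM in mice 1, 2 and 3 (133 ± 27.4 TPM), which ranked 1041 among all symbols and stood above 93.1% of the symbols averaging 1 TPM or more. This was the level of the enrichment marker: Nkg7 was 1.10, 0.680 and 1.07 times Kit in the 3 mice. Its lowest value, in mouse 2, was above the highest value of any other member. Nkg7 lies at 43437073 to 43438249 on the plus strand of chromosome 7, shared no word of 31 bases with another gene, and no exon of another gene overlapped it.

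Prf1, the perforin gene, was at the other end of the order, at 0.848, 0.445 and 0.685 TPM (0.659 ± 0.203 TPM), below 1 in every mouse. The gene lies at 61297833 to 61304680 on the plus strand of chromosome 10. Gzmb, the granzyme B gene, lies at 56258838 to 56262260 on the minus strand of chromosome 14 and had 6.81, 2.14 and 2.38 TPM (3.78 ± 2.63 TPM). Mouse 1 was high and mice 2 and 3 were alike. Gzmb exceeded Prf1 by 8.04, 4.80 and 3.48 times in mice 1, 2 and 3. On the TPM + 1 scale, which understates changes of low genes, mouse 1 exceeded mouse 2 by 2.49 times and mouse 3 by 2.31 times.

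Gzmb was the 1 member among the 7 averaging 1 TPM or more that differed at least 2-fold between any pair of mice, where 8.57% of all symbols at that level did. Without mouse 1 the count was 0. Between mice 1 and 2 this limit was passed by 4.64% of symbols, between mice 1 and 3 by 5.38% and between mice 2 and 3 by 2.90%. With 1 library per mouse these differences have no test. The SD of Gzmb, 0.73 on the log2(TPM + 1) scale, was wider than that of 96.3% of such symbols. The nearest profiles over the 3 mice, measured as the distance between centred log2(TPM + 1) values, were those of Ptprg (distance 0.0394), Afap1l1 (0.0438) and Gimap4 (0.0469). With 3 libraries such likeness is weak, and 52 symbols lay within a distance of 0.2.

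Of the other granzymes, Gzma had 0.770, 1.01 and 2.40 TPM and Gzmm had 2.25, 1.32 and 0.778 TPM, with opposite orders of the mice. Gzmc, Gzme and Gzmk did not reach 0.2 TPM in any mouse, and Gzmd, Gzmf, Gzmg and Gzmn were listed at 0 in all 3. Granzyme genes are a tandem family, but Gzmb transcripts shared only 1.35% of their words, all of them with Gzmc.

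Mast cell and basophil genes were compared because Gzmb is known from mast cells. Cpa3, a mast cell protease, had 51.9, 14.6 and 13.2 TPM in mice 1, 2 and 3, Gata2, a transcription factor of mast cells and progenitors, had 44.3, 16.8 and 16.9 TPM, and Mcpt8, a basophil protease, had 31.4, 12.5 and 17.3 TPM. All 3 were highest in mouse 1, like Gzmb, while Hdc, the enzyme of histamine synthesis (15.6, 13.9 and 28.0 TPM), and Prss34, a basophil protease (2.38, 2.76 and 4.16 TPM), were highest in mouse 3. Over the whole list of 10 the sum was 147, 61.6 and 80.4 TPM. Of its 6 genes averaging 1 TPM or more 4 were highest in mouse 1, as deposited and after scaling to a common upper quartile, where 48.6% and 35.6% of all symbols were. The mast cell proteases Mcpt1 and Tpsb2 were listed at 0 in all 3 mice. Of the other genes of the list, Ms4a2 had 1.37, 1.08 and 0.733 TPM in mice 1, 2 and 3. Fcer1a and Cma1 had highest values of 0.0790 and 0.0691 TPM. The part of these cells in the Gzmb values was not tested.

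**Figure D4:**
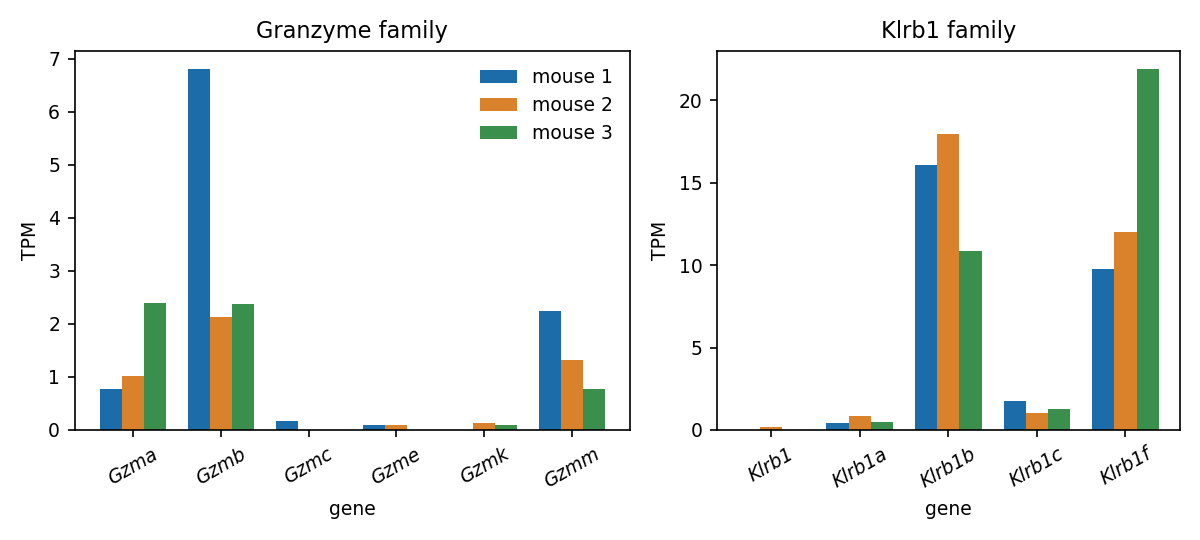
TPM of the granzyme genes listed above 0 in at least 1 mouse (left) and of the Klrb1 genes (right), with 1 bar per mouse. Gzmb in mouse 1, at 6.81 TPM, is the tallest granzyme bar, and Klrb1b and Klrb1f stand above Klrb1c in each mouse.

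Genes of a list for the handling of cytotoxic granules, some of them also used by myeloid granules, were mostly abundant. Of its 10 genes 9 were detected in every mouse, where 50.7% of all symbols were. They were led by Srgn, a proteoglycan of granules (626 ± 27.6 TPM), Stxbp2, a protein of granule fusion (203 ± 10.9 TPM), and Ctsc, the protease that activates granzymes and neutrophil serine proteases (122 ± 17.4 TPM). The gene not detected was Fasl, the ligand of the death receptor Fas, which had a highest value of 0.244 TPM. Ctsw, a protease gene of the list, had 6.96, 3.78 and 5.56 TPM in mice 1, 2 and 3.

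Klrb1c encodes an NK cell receptor of the lectin type and lies at 128778485 to 128789215 on the minus strand of chromosome 6. It had 1.77, 1.02 and 1.25 TPM in mice 1, 2 and 3 (1.34 ± 0.386 TPM), close to the detection threshold in each mouse. Its relatives Klrb1b and Klrb1f were higher, at 16.1, 18.0 and 10.8 TPM and at 9.75, 12.0 and 21.9 TPM. Klrb1a had a highest value of 0.874 TPM, and Klrb1 was at or below 0.154 TPM. Klrb1c shared 21.2% of its words of 31 bases with other genes, 13.1% with Gm44511, whose exons overlap it on the same strand over 413 bases. This was the largest shared portion among the 10 genes, and how reads were divided there is uncertain.

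NK cell genes beyond the members were also spread over a wide range. Of 20 fixed NK cell genes 8 were detected in all 3 mice, where 50.7% of all symbols were. The highest were Tyrobp, an adaptor also used by myeloid receptors (399 ± 88.7 TPM), Klrk1, an activating receptor (36.4, 67.6 and 35.4 TPM), and Cd244, a receptor also found on progenitors (47.9, 41.4 and 27.8 TPM). Ncr1, a receptor largely restricted to NK cells and innate lymphoid cells, had 0.310, 1.74 and 2.10 TPM and was low in mouse 1. The median of the list was 1.18 ± 0.54 on the log2(TPM + 1) scale, against 1.39 over all symbols.

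The 10 genes did not share 1 order of the mice. Cd3d, Cd3e, Cd3g and Cd8a were lowest in mouse 1 and highest in mouse 3, and Cd4 was lowest in mouse 1 and highest in mouse 2. Lck, Nkg7, Gzmb, Prf1 and Klrb1c were lowest in mouse 2 and highest in mouse 1. Among the 7 members averaging 1 TPM or more, 4 were highest in mouse 1, 1 in mouse 2 and 2 in mouse 3, where 48.6%, 31.1% and 20.3% of all symbols at that level were. Of the same 7 members 3 were lowest in mouse 1 and 4 in mouse 2, where 24.4% and 33.0% of symbols were. Lowest in mouse 1 and highest in mouse 3 were 2 of the 7, Cd3d and Cd8a, against 9.99% of symbols. Scaling to a common upper quartile, which shifted log2 values by -0.08 in mouse 1 and by 0.06 in mouse 3, put Nkg7 highest in mouse 3 (149 TPM against 145 TPM in mouse 1) and left Lck nearly equal in both (17.2 TPM). After this scaling 3, 1 and 3 of the 7 members were highest in mice 1, 2 and 3, against 35.6%, 33.9% and 30.4% of symbols. The members lowest in mouse 1 (36.0% of symbols) and in mouse 2 (33.5%) again numbered 3 and 4, and those lowest in mouse 1 and highest in mouse 3 (16.0%) again numbered 2. The mouse with the lowest value did not change for any of the 10 genes, and that with the highest value changed for Nkg7 alone.

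**Figure D5:**
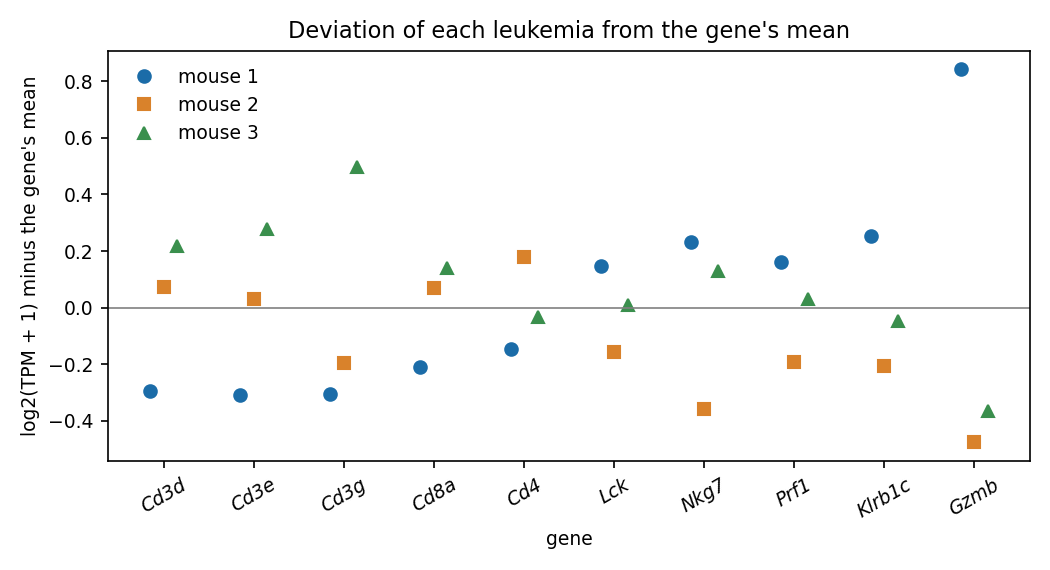
Deviation of each mouse from the gene's mean on the log2(TPM + 1) scale (circle mouse 1, square mouse 2, triangle mouse 3). In the CD3 genes, Cd8a and Cd4 mouse 1 lies lowest, and in Lck, Nkg7, Prf1, Klrb1c and Gzmb it lies highest, in the values as deposited; after upper-quartile scaling Nkg7 is highest in mouse 3.

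Lists of T cell, NK cell, B cell and myeloid genes were compared with the order of mice of the CD3 genes. In the T cell receptor list, 10 of the 19 genes averaging 1 TPM or more were lowest in mouse 1, where 24.4% of all symbols at that level were. After upper-quartile scaling it was again 10 of 19, against 36.0%. In the NK cell list 7 of the 12 genes at that level were lowest in mouse 1, and 9 after the scaling. Under both scalings 8 of these 12 were highest in mouse 3 and 2 in mouse 1, unlike the NK and cytotoxicity genes among the members as deposited. In a B cell list 5 of the 7 genes at that level were lowest in mouse 1, and 5 had their highest value in mouse 3, with or without the scaling. Of all symbols 20.3% were highest in mouse 3 as deposited and 30.4% after scaling. Its sum was 83.3, 141 and 275 TPM in mice 1, 2 and 3, led by Igkc (74.5 TPM, mean), Ighm (72.2 TPM) and Cd79b (10.7 TPM), and none of its genes was at 0 in all mice. Of the 9 myeloid genes 7 were also highest in mouse 3 under both scalings. Their sums were 2889, 2413 and 4968 TPM, lowest in mouse 2 and not in mouse 1 as for the CD3 genes, and 4 of the 9 were lowest in mouse 1. The part of such cells in the CD3 values was not tested.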

How the data were processed

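RNA of 3 leukemias was sequenced as stranded, paired-end reads of 150 nt, per the labels' protocols. These protocols name both ribosomal depletion and an mRNA kit, so how the RNA was selected is not settled. The authors deposited 1 linear value per gene symbol and mouse. The file's name says log2 FPKM, but the columns sum to 927169 to 929731, so the deposited values were taken as TPM. The submitters' processing notes name kallisto and mm10; the annotation is not given in the sources used here. Rows without a symbol (795, at most 0.608% of a column sum) or with a date for one (27) were left out, and 90 repeated symbols were summed. Another 3 per-sample columns match no sample of this series and were not used. Levels were put on the log2(TPM + 1) scale, and a 2-fold limit was applied to TPM + 1. Symbols were matched to GENCODE M21 for positions, exon overlaps and shared words of 31 bases, and 9 of the 10 members to RefSeq promoters (GRCm38.p6). The single group allowed no test, and p-values are not given.

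The members and lists were chosen with earlier results of these data known. Named genes were the members, the 3 most abundant genes of each list, the receptor constant segments, the Klrb1 and granzyme families, Kit, Flt3 and the nearest profiles of the member with the widest spread. Cd247, Zap70, Cd8b1, Lat, Cd2, Ncr1, Fasl, Ctsw, Hdc, Prss34, Mcpt1, Tpsb2, Ms4a2, Fcer1a and Cma1 were chosen after their values were seen. Nothing shows whether the mice shared a litter or a day. Python 3.11.15, numpy 2.4.6, pandas 2.3.3 and matplotlib 3.10.9 were used.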

Additional observations from a re-analysis of the deposited data

How the results depend on the processing

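Of 103 recomputed counts, sums and medians, 87 kept within 1.5 times the count or within the spread between mice. Among 60 recomputed log2 levels of single members, 54 kept within that spread. The other 6, of Cd3e, Cd3g, Cd4, Cd8a, Prf1 and Klrb1c, moved with a pseudocount of 0.1. No paired analysis was possible because the labels hold a single group. The number of members that differed at least 2-fold between mice was 1 and ranged from 0 (without mouse 1) to 1 when each mouse was left out. Members highest in mouse 3 numbered 2, and from 3 (without mouse 2) to 6 (without mouse 1) with a mouse left out; with no filter on low values they numbered 4. Members highest in mouse 2 ranged from 1 to 3, the 3 without mouse 3. Members that were highest in a mouse left out then count for another mouse. The matching shares of all symbols were not computed. Granzyme genes detected in all mice numbered 1, and 1 to 2 with a mouse left out. With a threshold of 0.1 TPM, detection was reached by 26 T cell receptor genes (13 at 1 TPM), 17 NK cell genes (8), 3 granzyme genes (1) and 10 B cell genes (5). With a threshold of 5 TPM, it was reached by 2 of the 10 members (7), 7 T cell receptor genes, 5 NK cell genes, 0 granzyme genes and 3 B cell genes. The share of all symbols was not computed at 0.1 or 5 TPM, so these counts cannot be set against it. The median over the members moved from 2.18 to 1.84 with a pseudocount of 0.1. These values changed with the threshold, the pseudocount, the filter on low values or the mouse left out. TPM holds no depth, so counting error at values near 1 TPM could not be computed.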
